A study of Mus musculus with 7 samples.

Results

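RT stop positions that appeared only after treatment with dimethyl sulfate (DMS) were collected from CIRS-seq counts of mouse embryonic stem cell (ESC) RNA. A position of a transcript was a DMS-only position when the combined DMS count was at least 50 and the combined counts of the non-treated (NT) and CMCT samples were each at most 1 or not listed. Of the copies that met the rule, those with the same gene symbol and position number were counted once, even where their base differed. The one with the highest DMS count was kept. A position was thus DMS-only when at least 1 copy met the rule, and other copies may have missed it. This rule found 1627 DMS-only positions among 449298 positions with at least 50 DMS counts (0.362%), out of 10306955 positions listed after DMS. The positions were thus chosen by the measured counts, and their DMS, NT and CMCT counts only describe them and were not tested. Of the 1627 positions, 1621 lay on transcripts found in GENCODE vM1 and are described below. Because isoforms, gene copies and pseudogenes share sequence, they held 705 distinct sequences of 25 bases (the position and the 24 bases after it) at 1171 genomic positions of 717 gene symbols. The number depended on single libraries with the thresholds kept. It was 801 without DMS replicate 1 and 81 without DMS replicate 2, 2478 without NT replicate 1, and 4589 and 3073 without CMCT replicate 1 and 2.

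CIRS-seq was carried out on the E14 mESC line (strain 129/Ola), whose lysate was treated with Proteinase K to remove proteins before probing. Aliquots received DMS at 50 to 200 mM for 2 min or CMCT at 10 to 50 mM for 20 min, and the doses of a reagent were pooled. The NT sample was a pool of the aliquots without DMS and without CMCT. Each treatment had 2 biological replicates, and 1 RNA-seq library of the same line had none.

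DMS methylates the N1 of adenosine and the N3 of cytosine when these atoms are not engaged in a base pair, and reverse transcriptase stops at the neighboring base on the 3′ side of the methylated one. CMCT reacts mainly with unpaired uridine and, less, with guanosine. The paper also observed DMS reactivity at G and U and CMCT reactivity at C. The NT sample records stops that arise without a reagent, at modified nucleosides, stable structures or RNA ends.

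The sequences around the DMS-only positions that are described first are given here from 5′ to 3′ on the strand of the RNA in mm9, with 10 bases before the position where the transcript has them. The capital marks the DMS-only base. They are shown because they include the highest DMS counts, several kinds of RNA and, in U6, a base other than A.
AL844869.1 position 48: ggatcactttAgtccaggagttctgg
Eef1b2 position 472: agttgttgcgAagtcttccatcctac
7SK copy position 3: ggAtgtgagggtgatctg
Rpl11 position 427: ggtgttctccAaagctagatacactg
Rps2 position 459: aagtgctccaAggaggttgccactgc
mt-Nd5 position 1713: ctcttcacacAaacataaccacttta
Rps20 position 441: attccagatgAggatccacaagcgac
Hnrnpa3 position 1002: atgactttggAaattatagtggacag
SNORA32 position 47: tttgctgtggAcatgaccataaagaa
U6 copy position 40: attggaatgaTacagagaagattagc

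The combined DMS counts summed to 435037765, against 466990250 for NT and 520160319 for CMCT, so DMS had the lowest sum of the 3 treatments. The sums ran over all transcripts listed, isoforms and gene copies included, and exceed the reads per treatment that the paper reports. They are thus no measure of the number of reads. Scaling to depth, where used below, took these sums. The replicates held 229302588 and 205720379 counts for DMS, 245272270 and 221675761 for NT, and 338201940 and 181944556 for CMCT. A count of 0 at a position allows an expected count of up to 3. In RNA-seq, the 10 ESC markers looked at had 119 to 7031 alignments per kb of exon, including Pou5f1 at 2391, and summed to 20285. The 6 fibroblast markers had 0.128 to 7.49 and summed to 10.6, and the 3 mesoderm markers summed to 8.52. The 3 neural markers summed to 390, of which Tubb3 made 362, and the 3 endoderm markers summed to 120 with Afp at 0. The part of other cell types in the DMS-only positions was not tested.

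DMS-only positions had DMS counts from 50 to 513, with a median of 65 and quartiles of 55 and 86. Counts were under 100 at 85.2% of the positions, and 19 positions had at least 200. The NT count was 0 at 72.4% and the CMCT count was 0 at 46.7% of the positions. Just inside the threshold, 158 positions had a DMS count of 50 or 51 and 98.1% of them were A. Just outside, 195 positions had a DMS count of 48 or 49 and 97.4% of them were A. A further 1894 positions had enough DMS counts but a larger NT or CMCT count of 2, and 96.6% of these were A. The composition thus did not step at either threshold. The mirrored rules gave few positions, 6 of 350842 for NT (0.00171%) and 102 of 443467 for CMCT (0.023%). Stops that arise without a reagent can occur in the treated samples too, so the NT number is no like reference for DMS.

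Adenosine made up nearly all DMS-only positions. It was the base at 1545 of 1621 positions (95.3%, 95% Wilson interval 94.2% to 96.2%) and at 654 of the 705 distinct sequences (92.8%, 90.6% to 94.5%). All intervals given reflect counting error alone, and positions that share a sequence or lie side by side are not independent. Cytidine, the other base that DMS methylates, was found at 42 positions (2.59%), U at 19 (1.17%) and G at 15 (0.925%). The rule leaves out any base with more than 1 CMCT count, and the part of this limit in these shares was not tested. Among all positions with at least 50 DMS counts, A made up 33.4% and C 30.0%. A was 26.0% of all 49751631 bases that could be measured. The CMCT-only positions were composed differently, with U at 67 of 102 (65.7%), G at 16, C at 15 and A at 4.

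**Figure D1:**
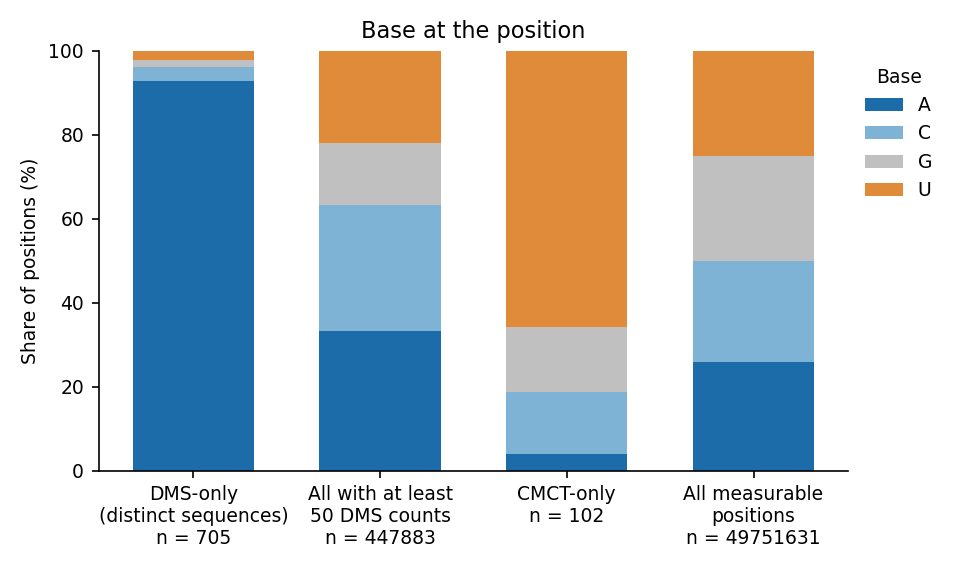
Stacked bars give the percent of positions at each base for DMS-only sequences, all positions with at least 50 DMS counts, CMCT-only positions and all measurable positions. A fills 92.8% of the first bar and 33.4% of the second, while U fills 65.7% of the CMCT-only bar.

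The share of A was followed over sequences with 50 to 200 DMS counts as the larger of the NT and CMCT counts rose. With a count of 0 or 1 it was 92.8% of 705 sequences. With 4 to 7 counts it was 90.0% of 5033, with 16 to 31 counts 59.9% of 13098, and with 64 or more 17.6% of 52987. C rose from 3.40% at 0 or 1 counts to 22.0% at 16 to 31 counts and 41.0% at 32 to 63 counts, and was 32.9% at 64 or more. These 705 sequences are not exactly the 705 above, since all copies of a symbol entered here and positions over 200 counts did not.

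**Figure D2:**
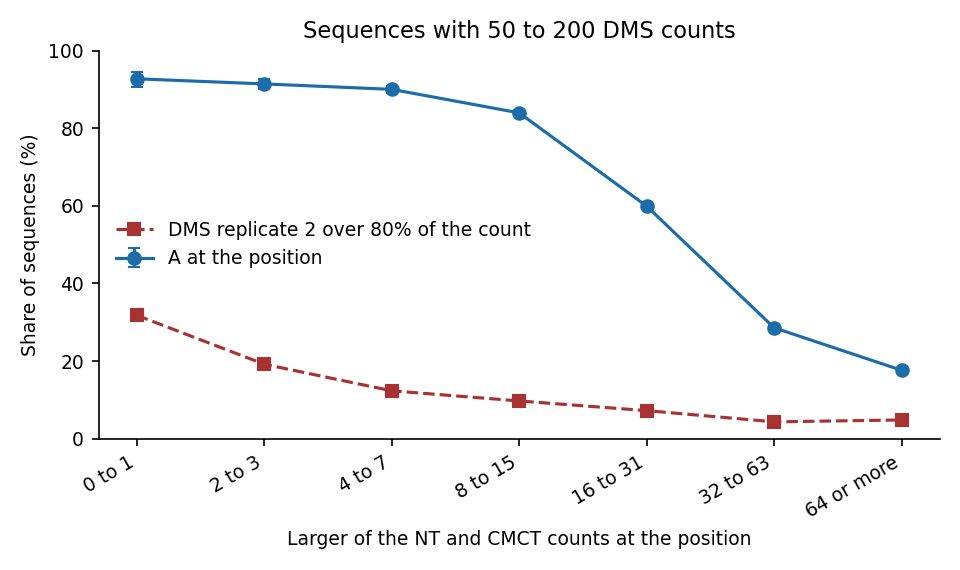
The share of sequences at A (circles, with 95% Wilson intervals) and the share with more than 80% of the DMS count in replicate 2 (squares) are plotted in percent against the larger of the NT and CMCT counts, for sequences with 50 to 200 DMS counts. A falls from 92.8% at the left to 17.6% at the right, and the replicate 2 share from 31.8% to 4.32% at 32 to 63 counts and 4.81% at 64 or more.

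The base after the position also differed from that at other A. Of the 654 DMS-only sequences at A, 65.7% (62.0% to 69.3%) were followed by another A and 23.1% by G, while C (6.12%) and U (5.05%) were rare. At the 40862 other A sequences with at least 50 DMS counts, 48.9% were followed by A, 15.4% by G, 14.9% by C and 20.8% by U. Before the position, A stood at 33.8% against 27.9%, and C at 26.6% against 30.2%. The printed sequences show the pattern, with Aa in Eef1b2, Rpl11, mt-Nd5 and Hnrnpa3 and Ag in AL844869.1, Rps2 and Rps20, while the A of the 7SK copy is followed by U and that of SNORA32 by C.

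RNA folding was predicted for 150 bases around each sequence at A, without any use of the counts. The predicted probability of being unpaired had a median of 0.945 and exceeded 0.5 at 505 of 654 positions (77.2%, 73.8% to 80.3%). Its mean was 0.759, against 0.654 for the other A within 15 bases and 0.451 for all bases there. At 71.9% of the positions it was higher than the mean of the neighboring A. Several of the highest counts lay at A predicted to be paired, with unpaired probabilities of 0.00365 at AL844869.1 position 48, 0.163 at 7SK position 3 and 0.145 at the Rps2 sequence as placed in Gm4968. Those at Eef1b2 position 472 (0.930), Rpl11 position 427 (0.931) and mt-Nd5 position 1713 (0.979) lay at A predicted to be unpaired.

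RT stops were also found near the DMS-only positions. The shares in this paragraph were not computed for other positions, so they show no trait particular to DMS-only positions. Of the 680 distinct sequences with enough bases on both sides, 679 had at least 1 NT stop within 10 bases, and 280 (41.2%) had an NT count of at least 50 there. The median DMS count was 65 at the position, 25.5 at the base before it and 13.5 at the base after it. The median NT count was 3 at the base before and 1 at the base after, and that of CMCT was 6 and 3. The position held the highest DMS count within 10 bases for 205 sequences (30.1%). Another DMS-only position lay within 10 bases on the same transcript at 18.1% of the 1621 positions.

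**Figure D3:**
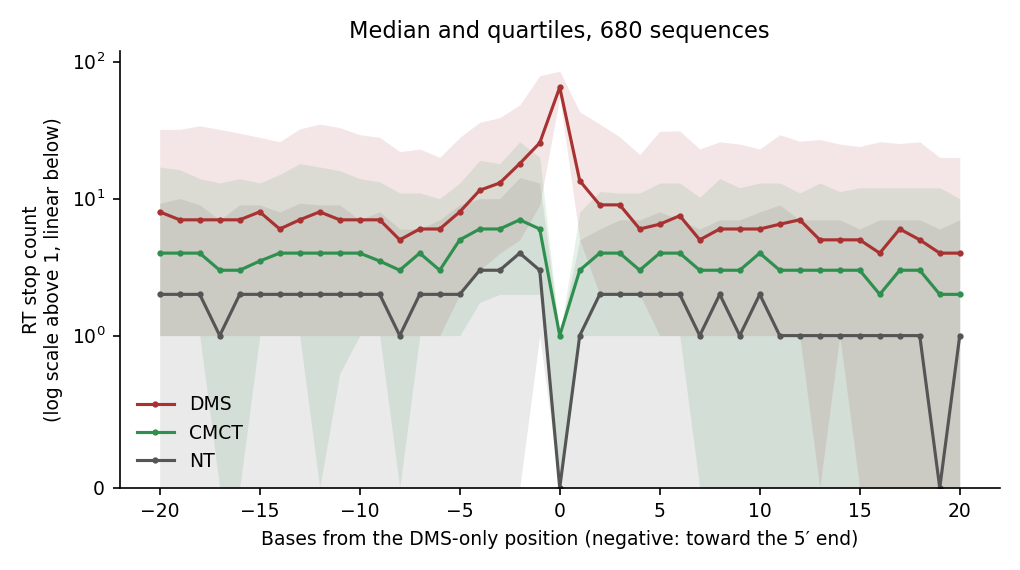
Lines give the median RT stop count of DMS, CMCT and NT at each base from 20 before to 20 after 680 distinct DMS-only sequences, shaded bands span the quartiles, and the vertical axis is logarithmic above 1 and linear below. The DMS median peaks at 65 where those of NT and CMCT fall to 0 and 1, as the rule requires, and the DMS median is raised to 25.5 at the base before.

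Protein-coding genes held 981 of the 1621 DMS-only positions (60.5%) and pseudogenes 536 (33.1%). Among all positions with at least 50 DMS counts, protein-coding genes held 70.8% and pseudogenes 19.8%. The rest lay in processed transcripts (27), lincRNAs (22), snRNAs (14), snoRNAs (13), mitochondrial rRNAs (12), misc_RNAs (9), rRNAs (4) and miRNA precursors (3). The shares were above those among all positions with at least 50 DMS counts for snRNAs (0.864% against 0.259%), snoRNAs (0.802% against 0.218%) and mitochondrial rRNAs (0.740% against 0.417%). They were below them for lincRNAs (1.36% against 2.85%), processed transcripts (1.67% against 2.38%), misc_RNAs (0.555% against 1.15%), rRNAs (0.247% against 0.697%) and miRNA precursors (0.185% against 1.38%). Taken by distinct sequences, the DMS-only ones came to 0.568% of the number with at least 50 DMS counts (124200). The ratio was 0.486% for protein-coding genes and 0.983% for pseudogenes. A DMS-only sequence was given the kind of its highest DMS-only copy, and each of the 124200 that of its highest copy. These kinds can differ, so the ratios by kind are not shares that met the rule. Of the 199 DMS-only pseudogene sequences, 88 also stood in another kind of gene with at least 50 DMS counts. By this count snRNAs (11 of 628, 1.75%) and snoRNAs (10 of 827, 1.21%) lay above the 0.568% over all kinds. The value for rRNAs was also higher, with 4 of 401 (0.998%), but all 4 came from a single transcript. Mitochondrial rRNAs (12 of 1869, 0.642%) lay slightly above 0.568% and misc_RNAs (9 of 1983, 0.454%) slightly below. LincRNAs (11 of 4026, 0.273%) and processed transcripts (11 of 3276, 0.336%) were lower. These ratios rest on few sequences and were given no intervals, so small gaps from 0.568% are not read as differences. Of the 536 positions in pseudogenes, 415 (77.4%) shared their 25 bases with another kind of gene. Transcripts annotated as transcribed processed pseudogenes carried 445 of the 1621 positions. The deposited counts do not tell which of the copies that share a sequence was transcribed.

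Within protein-coding transcripts, 576 of 709 DMS-only positions lay in the coding region (81.2%, 78.2% to 83.9%), 89 in the 3′ UTR (12.6%) and 44 in the 5′ UTR (6.21%). Among all A of the same transcripts, the coding region held 54.5% and the 3′ UTR 38.7%. In this reference each transcript entered once with all its A, so long transcripts weigh more. A transcript with several DMS-only positions, by contrast, counts several times among the 709. The part of this weighting in the difference was not tested. Among all positions with at least 50 DMS counts, the coding region held 42.3% and the 3′ UTR 51.7%. The median length of the transcript, taken over positions, was 774 bases for DMS-only positions and 1381 bases for all positions with at least 50 DMS counts. The distance from the position to the 3′ end had a median of 319 bases against 497, and the last 25 bases of every transcript carried no DMS counts.

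**Figure D4:**
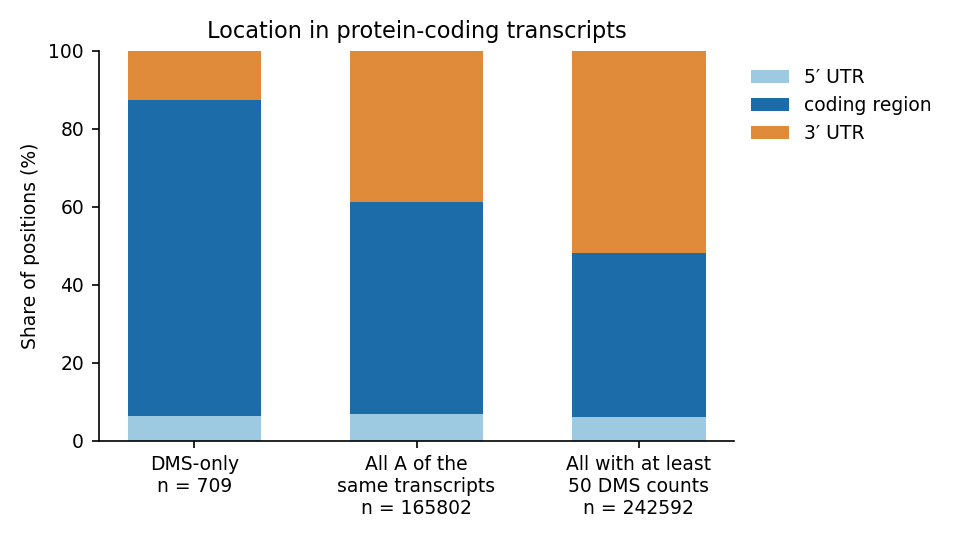
Stacked bars give the percent of positions in each UTR and in the coding region for 709 DMS-only positions of protein-coding transcripts, for all A of the same transcripts (each transcript taken once) and for all positions with at least 50 DMS counts. The coding region fills 81.2% of the first bar, 54.5% of the second and 42.3% of the third.

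In the coding regions, A at DMS-only positions stood at codon base 1 in 39.3%, at base 2 in 36.1% and at base 3 in 24.6% of 562 cases, against 36.8%, 40.5% and 22.7% for all A there. Codons were read from the first annotated coding base, so an annotation that starts within a codon can shift the frame. Isoforms and copies of a sequence each counted among the 562, while each transcript entered the reference once. The lysine codon aag held 24.9% (21.5% to 28.6%) and the lysine codon aaa 17.6%. All A of these coding regions lay in aag at 14.8% and in aaa at 11.1%. Among the other frequent codons, aac held 7.47% against 5.24%, the arginine codon aga 6.05% against 3.28% and aat 5.16% against 3.46%. The codon gaa went the other way, with 5.69% against 6.22%.

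The RNAs with DMS-only positions were densely covered. Their transcripts had a median of 8.57 NT, 17.9 DMS and 15.3 CMCT stops per base, against 1.17, 1.58 and 1.79 over all transcripts. The 356 protein-coding genes with DMS-only positions had a median of 758 RNA-seq alignments per kb, against 113 for all 7943 protein-coding genes listed, and 178 of them (50.0%) were in the top 10%. For the 317 pseudogenes with DMS-only positions the median was 41.1, against 44.5 for all 2301 listed. A count of 50 is reached only at sufficient depth, and its part in this difference was not tested.

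The DMS replicates often split the count unequally, and in 1 direction. Replicate 1 held a median of 26.8% of the count at DMS-only positions and of 34.9% at distinct sequences, against 50.0% at all positions with at least 50 DMS counts. Replicate 2 held over 80% of the count at 635 positions (39.2%, 36.8% to 41.6%), and replicate 1 did so at 6 (0.370%). At all positions with at least 50 DMS counts these shares were 5.45% and 4.25%. Each replicate held at least 20% of the count at 980 DMS-only positions (60.5%), against 90.3% at all. This share was 35.0% for the positions found without DMS replicate 1 and 90.1% for the 81 found without DMS replicate 2, so it turned on which replicate had to reach the threshold. Over all DMS counts of the transcripts that carry these positions, replicate 1 held a median of 48.5%, with quartiles of 42.4% and 52.9%. Some transcripts described here were split towards replicate 2 as a whole, with 6.22% in replicate 1 for SNORA32, 18.3% for Rps20, 26.2% for the 7SK copy and 29.9% for Rpl11. At 88.6% of the DMS-only positions the share of replicate 1 was lower than that of its transcript.

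**Figure D5:**
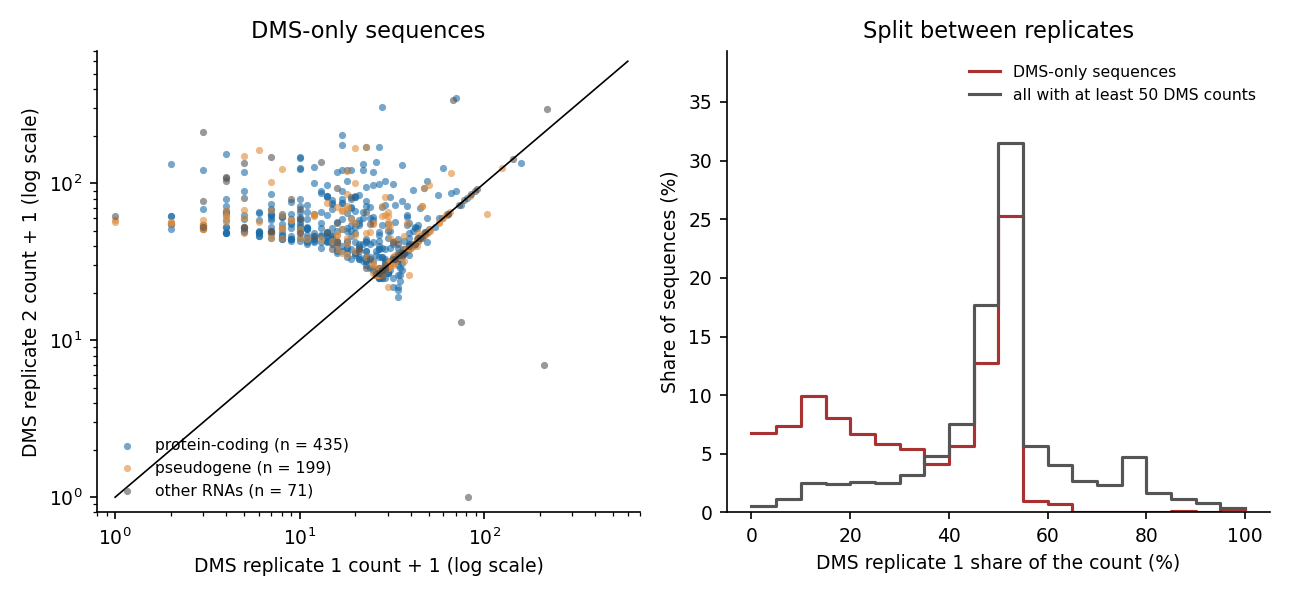
Left, the DMS replicate 1 and replicate 2 counts plus 1 of the 705 distinct DMS-only sequences are plotted on log axes by kind of gene, with a line where they are equal. Right, the share of sequences is plotted against the percent of the count in replicate 1, where DMS-only sequences form a broad shoulder below 35% that is much lower among all sequences with at least 50 DMS counts.

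A further group of sequences had nearly equal replicates. Both counts lay within 1 of each other at 219 of the 705 distinct sequences (31.1%), and were equal at 100. Among all sequences with DMS counts from 50 to the 95th percentile of the DMS-only positions, 30.7% differed by at most 1. Whether the 2 replicate counts are independent at such sequences was not tested, so their closeness is no measure of reproducibility. Of these 219 sequences, 96 (43.8%) lay in pseudogenes and 92 (42.0%) in protein-coding genes. Taken by kind, the counts lay within 1 at 48.2% of the DMS-only sequences of pseudogenes and 21.1% of those of protein-coding genes, against 57.2% and 22.6% of all sequences of these kinds with at least 50 DMS counts. Of the 227 sequences with over 80% in replicate 2, 153 (67.4%) lay in protein-coding genes and 51 (22.5%) in pseudogenes. A was the base at 93.6% of the 219 sequences with near-equal replicates and at 89.4% of the 227 with over 80% in replicate 2. Kinds of RNA were split unequally too, with replicate 2 over 80% at 10 of 12 sequences of mitochondrial rRNA, at 6 of 10 of snoRNAs and at none of 4 of rRNA. Among all sequences of these kinds with at least 50 DMS counts, replicate 2 held over 80% at 23.7%, 35.7% and 0 of 401.

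Many DMS-only positions could not be assigned to a single place. Counted by position, the 25 bases occurred once in mm9 at 400 of 1621 (24.7%), against 13.6% at all positions with at least 50 DMS counts, and at 13.6% of the positions found without DMS replicate 1. Counted by sequence, they occurred once for 267 of the 705 distinct sequences (37.9%), more than once for 424 (60.1%), and were not found whole for 14, as at splice junctions. Over all distinct sequences with at least 50 DMS counts, 35.1% occurred once and 63.5% more than once, so the shares lay closer together by sequence than by position. Of the 705, 291 (41.3%) also stood at another position with at least 50 DMS counts that missed the rule, and for 185 (26.2%) NT or CMCT exceeded 5 there. Among the 267 found once, A was the base at 92.1% and replicate 2 held over 80% at 26.6%. Among the 414 without such another position, these shares were 90.3% and 27.3%.

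Ribosomal protein genes held the most DMS-only positions of the gene lists looked at. DMS-only positions were found in 57 of 82 symbols listed (69.5%), against 717 of 12002 over all symbols (5.97%). They numbered 286, which is 1.05% of the positions of these genes with at least 50 DMS counts, against 0.362% over all. They held 159 distinct sequences, 158 of them at A. Of the 109 sequences in protein-coding transcripts, 106 lay in the coding region. Replicate 1 held a median of 23.4% of the count, and replicate 2 over 80% at 66 of the 159.

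Rpl11 and Rpl13a, components of the large ribosomal subunit, had the most DMS-only positions, 27 and 28. Those of Rpl11 held 13 distinct sequences, all at A, with DMS counts of 50 to 333. At position 427 of a processed transcript of Rpl11 (ENSMUST00000125726, mm9 chr4:135608485-135608485, minus strand), the DMS replicates had 27 and 306 counts, both NT replicates 0, and the CMCT replicates 0 and 1. The other printed subunit genes behaved differently from each other. Rps20 position 441 (ENSMUST00000103009, mm9 chr4:3761761-3761761, minus strand), in a protein of the small subunit, had 26 and 169 DMS counts and 0 in all NT and CMCT replicates. The Rps2 sequence had 157 and 133 DMS counts, 1 and 0 in NT, and 0 in CMCT, and thus nearly equal replicates. It occurred at 29 places of mm9, and 9 symbols were DMS-only there with the same counts, among them Rps2 (ENSMUST00000146867, mm9 chr17:24857972-24857972, plus strand).

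Isoforms can differ in the base at a position and share the bases after it. The 24 bases after the position also followed an A with at least 50 DMS counts elsewhere for 4 of the 51 sequences that are not at A, which were 3 of 13 at G, 1 of 23 at C and 0 of 15 at U.

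Among translation factors, 8 of 61 symbols (13.1%, against 5.97% over all) had DMS-only positions, all 18 sequences at A. They made up 0.512% of the positions of these genes with at least 50 DMS counts, against 0.362% over all. Eef1b2, a subunit of the exchange factor of elongation factor 1, had the highest DMS count of any protein-coding gene. Its position 472 (ENSMUST00000135877, mm9 chr1:63225839-63225839, plus strand) had 69 and 351 DMS counts, 0 and 1 in NT, and 1 and 0 in CMCT, and its 25 bases occurred once in mm9. Eif4a2, an RNA helicase of initiation, had 2 and 120 DMS counts at position 461. Eef1a1, which brings aminoacyl-tRNA to the ribosome, had 59 and 124 at position 790, and Eif3d 26 and 26 at position 1305. Replicate 2 was higher at the first 3 and equal at the last.

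Among hnRNP and SR proteins, which bind pre-mRNA and influence its splicing, 7 of 30 symbols (23.3%, against 5.97% over all) had DMS-only positions with 12 sequences, all at A. By position the share was 1.66%, against 0.362% over all, and Hnrnpa3 held 25 of the 37 positions. Those of Hnrnpa3 held 6 sequences, and replicate 1 held 1.64% to 7.69% of their counts. At position 1002 (ENSMUST00000090792, mm9 chr2:75503122-75503122, plus strand) the DMS replicates had 4 and 88 counts. This sequence occurred at 28 places of mm9 and was DMS-only in 20 symbols, the most of any sequence, among them Gm12960, Gm6254 and Gm11847. The other 6 symbols had DMS counts just over the threshold, with nearly equal replicates in Srsf2 (26 and 24), Srsf3 (26 and 26), Hnrnpk (26 and 24) and Hnrnpa0 (24 and 28). Replicate 2 was higher in Hnrnpa1 (4 and 49) and Hnrnpa2b1 (10 and 41).

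Histone genes had DMS-only positions in 12 of 82 symbols (14.6%, against 5.97% over all), with 16 sequences, all at A. They made up 0.158% of the histone positions with at least 50 DMS counts, less than the 0.362% over all positions. The linker histone Hist1h1b had 3, with DMS counts of 17 and 64, 15 and 56, and 6 and 47. The core histone Hist1h4h had 63 and 63 at position 381, in its 3′ UTR, and Hist1h1e had 28 and 30 and 25 and 25. Replicate 2 was also far higher in Hist1h1c at positions 452 (14 and 68) and 427 (7 and 60) and in Hist1h2aj (3 and 67). Hist1h1c position 618 had 22 and 29. Histone genes thus held both unequal and near-equal positions. Heat shock genes had DMS-only positions in 4 of 47 symbols (8.51%, against 5.97% over all) and at 0.217% of their positions with at least 50 DMS counts. Hspe1, the mitochondrial co-chaperonin, had 9 and 58 DMS counts, and Hsp90ab1, a cytosolic chaperone, 36 and 35. Of the 10 pluripotency genes, Pou5f1 had a DMS-only position, which was 0.119% of the positions of these genes with at least 50 DMS counts, against 0.362% over all. It lay at base 1047 in its coding region, with 2 and 50 DMS counts, 0 NT and 1 CMCT.

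Other protein-coding genes with many DMS-only positions were Apoe (21 with 6 sequences), a lipid carrier, and Cox6c (18 with 5), a subunit of cytochrome c oxidase. The highest of Apoe had 18 and 79 DMS counts, and that of Cox6c 12 and 88. Set, a histone chaperone, had 9 positions with 3 sequences and replicates within 1 count of each other, 62 and 62 at the highest. In Gas5, a lincRNA that hosts snoRNAs, 11 positions on as many isoforms came from 1 sequence, with combined DMS counts of 51 to 56 and 15 and 41 in the replicates at the highest.

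In mitochondrial RNA, 6 of 37 symbols (16.2%, against 5.97% over all) had DMS-only positions, with 17 sequences, 15 at A and 2 at C. By position the share was 0.208%, below the 0.362% over all. The 12S rRNA mt-Rnr1 and the 16S rRNA mt-Rnr2 held 12 of them. At mt-Nd5 position 1713 (mm9 chrM:13454-13454, plus strand), in the coding region of a complex I subunit, the DMS replicates had 16 and 201 counts. At mt-Rnr1 they had 6 and 147 at position 405, 12 and 135 at position 821, and 0 and 61 at position 498. Replicate 2 was far higher at all of these. Replicates were near equal only at mt-Rnr2 position 1535 (41 and 40) and position 387 (33 and 40).

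Among short RNAs, snoRNAs mostly guide rRNA modification. The list of symbols that start with Snor, SNOR or Scar leaves out U3 and SCARNA16, which is spelled in capitals, and had DMS-only positions in 4 of 206 symbols, with 7 sequences, all at A. By annotated kind, with each sequence counted under a single kind, snoRNA genes held 10 sequences, 9 of them at A. The share in the list was 1.94% of symbols against 5.97% over all, but 0.925% of positions with at least 50 DMS counts against 0.362%. SNORA32 position 47 (ENSMUST00000082686, mm9 chr12:16946846-16946846, plus strand) had 3 and 109 DMS counts and 0 in NT and CMCT, and SNORA4 position 37 had 3 and 107. SNORA8 had 20 and 36 at position 51. Replicate 2 was higher at all 7 sequences of the list.

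7SK RNA, which holds the elongation factor P-TEFb inactive, had 3 DMS-only positions, 0.852% of those with at least 50 DMS counts in the list of 7SK, Y and signal recognition particle RNAs, against 0.362% over all. Position 3 of a copy (ENSMUST00000083065, mm9 chrX:149358301-149358301, minus strand) had 67 and 341 DMS counts and 0 in NT and CMCT. A copy with 403 DMS counts at the same position number carried G there. The other 5 copies listed at position 3 had a median of 1934 DMS, 0 NT and 67 CMCT counts. The other 7SK positions, A278 with 72 and 72 counts and C271 with 63 and 63, had equal replicates.

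U6, the spliceosomal RNA of the catalytic core, had 9 DMS-only sequences, and 2 of them showed the reverse replicate split. Position 40 of a U6 copy (ENSMUST00000082558, mm9 chr9:32254474-32254474, minus strand) was a U with 210 and 6 DMS counts, and position 42 a C with 74 and 12. These and U at position 45 of AL844869.1, with 81 and 0, were the only DMS-only sequences with over 80% in replicate 1. The U at position 40 was DMS-only in 30 copies with at most 216 DMS counts, whereas the other 147 copies listed at position 40 had a median of 6711 DMS, 1683 NT and 7367 CMCT counts. The sequence at position 40 itself occurred at 249 places of mm9. At position 42, 8 copies were DMS-only. The other 165 copies listed there had a median of 2072 DMS, 442 NT and 850 CMCT counts. The other U6 sequences had replicates within 1 count of each other, as 88 and 88 at A69, 84 and 84 at A66 and 77 and 77 at A76. Here too, other copies at the same position numbers, whose base can differ, missed the rule. At position 69 the other 280 had a median of 556 DMS, 2 NT and 19 CMCT counts. At position 66 the other 24 had 230, 4 and 19.5, and at position 76 the other 1 had 392, 28 and 65. U4 had 3 and 102 at A44. The list of symbols that start with U and a digit, which also takes in the snoRNA U3, had 17 DMS-only positions in 4 of 16 symbols. This is 2.45% of its positions with at least 50 DMS counts, against 0.362% over all. Each position number entered once and was DMS-only when any copy met the rule, so symbols with many copies had more chances. At U6 position 35, for example, 2 copies were DMS-only and the other 431 listed were not. The part of this in the share was not tested.

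The highest DMS count was that of AL844869.1, a misc_RNA gene (ENSMUSG00000093056), at position 48 (mm9 chrX:85144780-85144780, minus strand), with 218 and 295 DMS counts and 0 in all NT and CMCT replicates. Its 25 bases occurred at 9 places of mm9. The 5.8S rRNA copy n-R5-8s1 had 4 DMS-only positions side by side or near, A60 (143 and 142), U61 (43 and 44), G62 (35 and 34) and A74 (47 and 48). The pseudogene Gm12566 had 124 and 124 at A232 and 25 and 26 at C231. The counts of both replicates differed by at most 1 at all positions of n-R5-8s1 and Gm12566, and their independence was not tested.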

How the data were processed

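CIRS-seq was measured in 6 libraries (NT, DMS and CMCT, 2 biological replicates each) and RNA-seq in 1. The authors deposited raw counts of RT stops per transcript position, for each library and for both replicates combined, and RNA-seq alignments to mm9, used here as counts. The submitters' processing notes name Bowtie 1.0.0, FastQC 0.10.1, bedtools 2.17.0 and TopHat2 2.0.6. The treatment of reads with several places is not given in the sources used here. Library totals, summed over all transcripts listed, ran from 181944556 to 338201940 counts.

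Of 26827 transcripts listed, 26792 matched GENCODE vM1 on mm9, and sequences were read from that genome. The 25 bases from each position onward were searched in mm9 on both strands, with a counter tested on simulated data. Shares have 95% Wilson intervals. Folding used ViennaRNA 2.7.2 on 75 bases either side. Python 3.11.15, numpy 2.4.6, pandas 2.3.3, scipy 1.17.1, numba 0.67.0 and matplotlib 3.10.9 were used. No tests were run, since the counts chose the positions. A combined count equaled the sum of its replicates at all DMS-only positions.

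Named were the 20 positions with the highest DMS count (at most 2 per symbol), the 10 symbols with the most positions, the highest position of each kind of RNA with at least 5, and members of the lists described, some of which are not reported here. Gas5, Set and the further positions given for U6, 7SK, n-R5-8s1, Gm12566 and AL844869.1 were added after their values were seen. The rule and the lists were chosen with earlier results of these data known. Alternatives were other count thresholds, scaling to depth, other ways of counting copies, and each library left out.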

Additional observations from a re-analysis of the deposited data

How the results depend on the processing

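The number and shares of DMS-only positions, 1621 on annotated transcripts, were recomputed under 18 alternatives. The share at A ran from 90.1% to 96.1%. No paired analysis was possible because the results come from no test. A minimum of 25 DMS counts gave 10392 positions, 75.3% with each replicate at 20% or more, 37.9% found once in mm9 and 68.7% on protein-coding genes. A minimum of 100 gave 240 positions, 95.8% at A or C, and 51.3%, 14.6% and 62.9% for the same 3 shares. With NT and CMCT at 0, the values were 585 positions, 98.6% at A or C, 56.4% with each replicate at 20% or more, 57.4% on protein-coding genes and 76.6% in the coding region. With both at most 5, they were 12922 positions, 76.8% with each replicate at 20% or more and 21.5% found once. With both at most 2% of DMS after scaling to depth, they were 3124 positions, 20.0% found once and 56.4% on protein-coding genes. Positions found once in mm9 (100% by construction) numbered 400, with 95.8% at A or C, 72.0% with each replicate at 20% or more, 67.5% on protein-coding genes and 77.7% in the coding region. Each sequence taken once gave 705, 96.0% at A or C, 67.4% with each replicate at 20% or more and 37.9% found once. Each genomic position taken once gave 53.3% on protein-coding genes. The highest position of each gene gave 729, 71.9% with each replicate at 20% or more and 48.8% on protein-coding genes. Without positions whose replicates differed by at most 1, 50.4% had each replicate at 20% or more, 21.1% were found once, 64.1% lay on protein-coding genes and 85.5% in the coding region. Without sequences that also stood at a position outside the rule, an alternative chosen after seeing the data, 1004 positions remained, 34.3% found once and 75.3% in the coding region. The sum of the replicate files changed no value.

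With each library left out, the number ran from 81 (without DMS replicate 2) to 4589 (without CMCT replicate 1), the share at A or C from 95.1% to 98.1%, and the share with each replicate at 20% or more from 35.0% (without DMS replicate 1) to 90.1% (without DMS replicate 2). The share found once ran from 13.6% (without DMS replicate 1) to 25.9%, that on protein-coding genes from 43.2% to 61.3%, and that in the coding region from 60% (without DMS replicate 2) to 88.9%. Leaving out a control library leaves fewer control counts under the same maximum. The causes of the other changes were not tested. Depth limits the rule, since a count of 0 allows an expected count of up to 3.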
